A study of Homo sapiens with 12 samples.

Results

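To determine how the hnRNPK peaks of a gene-dense chromosome compared between conditions, the peaks that chromatin immunoprecipitation and sequencing (ChIP-seq) gave on human chromosome 19 were described. The peaks were chosen by position, as all intervals on this chromosome in the 6 deposited peak lists. There were 719 of them among 16214 peaks on chromosomes 1 to 22, X and Y. Because a peak exists only where the authors' caller made a call, the numbers of peaks and the share of a list on chromosome 19 are descriptions and were not tested.

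All libraries were made from HCT116, an established colorectal carcinoma cell line, and per the study hnRNPK was overexpressed in every group. The cells carried a construct for the long noncoding RNA CRLM1 (CRLM1-OE), an empty control or an antisense control. Each of the 3 groups had 2 immunoprecipitated libraries and 2 input libraries, and each list was called from 1 immunoprecipitated library against its own input. The labels name a single cell line and do not say whether the 2 replicates of a group were separate cultures, so the spread between them may be partly technical. No read depth accompanies the lists, and differences in depth and in binding cannot be told apart.

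hnRNPK is an RNA- and DNA-binding protein whose KH domains hold short stretches of cytosine, in RNA and in single-stranded DNA, and it takes part in transcription, splicing and translation. Chromosome 19 is known for a high gene density, a high GC content and large tandem clusters of zinc finger (ZNF) genes. Most of these genes encode KRAB zinc finger proteins, which bind DNA and recruit repressors of transposable elements and genes. In the annotation used here (GENCODE release 44), chromosome 19 held 1476 protein-coding genes, or 25.3 per Mb, the highest density of 24 chromosomes. Its GC content was 47.9% against 40.7% on the other chromosomes.

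The reference sequence is shown for windows of 150 bp at 8 recurrent regions, so that their base composition can be read beside the values. Each window lay at the centre of the longest stretch that all lists calling the region covered, and none overlapped an annotated UTR. All are the plus strand of hg38, 5′ to 3′, and capitals mark runs of at least 4 C or 4 G, a G run being a C run of the other strand. The first pair, at BBC3 and at STX10 and IER2, was called in 5 and 4 lists. The next 4 were called in the CRLM1-OE pair and in none of the controls. The last pair stood for the only region shared by both empty control lists alone and the only one shared by both antisense control lists alone. The windows were chr19:47226581-47226730 (BBC3, within coding sequence), chr19:13155598-13155747 (STX10 and IER2, outside exons), chr19:1260364-1260513 (CIRBP, intron), chr19:816486-816635 (PLPPR3, intron), chr19:47112595-47112744 (ZC3H4 and SAE1, intron), chr19:2307543-2307692 (LINGO3, intron), chr19:27395476-27395625 (no gene, empty control) and chr19:17235971-17236120 (NR2F6, partly coding sequence, antisense control).
BBC3: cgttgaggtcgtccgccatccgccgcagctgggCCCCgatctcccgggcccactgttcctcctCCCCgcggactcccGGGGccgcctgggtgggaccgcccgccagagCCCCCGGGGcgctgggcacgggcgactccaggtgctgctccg
STX10 and IER2: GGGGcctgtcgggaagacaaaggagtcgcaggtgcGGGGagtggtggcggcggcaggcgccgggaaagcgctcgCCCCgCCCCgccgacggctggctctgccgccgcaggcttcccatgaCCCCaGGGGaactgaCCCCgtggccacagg
CIRBP: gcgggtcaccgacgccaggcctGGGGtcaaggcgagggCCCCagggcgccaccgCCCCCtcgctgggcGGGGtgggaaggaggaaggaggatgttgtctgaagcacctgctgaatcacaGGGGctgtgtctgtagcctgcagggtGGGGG
PLPPR3: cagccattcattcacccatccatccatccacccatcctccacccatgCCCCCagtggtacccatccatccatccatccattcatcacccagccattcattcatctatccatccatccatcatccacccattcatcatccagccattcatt
ZC3H4 and SAE1: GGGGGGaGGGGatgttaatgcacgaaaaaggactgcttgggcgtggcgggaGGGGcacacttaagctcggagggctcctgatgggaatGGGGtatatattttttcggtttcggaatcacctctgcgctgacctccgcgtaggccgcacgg
LINGO3: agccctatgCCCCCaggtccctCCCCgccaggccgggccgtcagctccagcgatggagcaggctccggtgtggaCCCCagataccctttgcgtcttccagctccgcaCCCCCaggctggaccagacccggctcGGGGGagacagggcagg
no gene, both empty control lists: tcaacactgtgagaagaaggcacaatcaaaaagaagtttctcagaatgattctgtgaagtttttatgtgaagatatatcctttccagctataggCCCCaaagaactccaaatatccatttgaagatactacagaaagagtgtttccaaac
NR2F6, both antisense control lists: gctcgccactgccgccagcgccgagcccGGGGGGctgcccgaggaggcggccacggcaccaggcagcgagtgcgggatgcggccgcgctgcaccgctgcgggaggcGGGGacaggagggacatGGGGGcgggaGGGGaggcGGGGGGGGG

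Runs of at least 4 C or 4 G were frequent in GC-rich sequence of any kind. They stood in 74.4% of the 719 windows of 150 bp at peak centres, in 54.8% of all 150 bp tiles of chromosome 19 and in 93.5% of the tiles with 60 to 70% GC. The window at STX10 and IER2 held 7 runs and that at CIRBP 6, whereas the PLPPR3 window held 1 run and 17 copies of CCAT. The window shared by the empty control lists had 36.0% GC and 1 run. These matches describe the sequence and are not binding sites.

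The 6 lists differed in how many chromosome 19 peaks they held. CRLM1-OE had 200 and 148 peaks, the empty control 29 and 133, and the antisense control 106 and 103. These were 4.61% and 4.68% of the CRLM1-OE lists, 1.79% and 5.10% of the empty control lists and 4.69% and 4.63% of the antisense control lists. Chromosome 19 holds 1.99% of the bases and 7.37% of the protein-coding genes. Empty control replicate 1 stood apart from the other 5 lists, whose shares lay between 4.61% and 5.10%. Its 95% Wilson interval of 1.25 to 2.56%, which covers counting error only, reached none of theirs, which began at 3.83% or above.

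In peaks per Mb, chromosome 19 ranked first of 24 chromosomes in CRLM1-OE replicate 2 and in both antisense control lists. It ranked 3 in CRLM1-OE replicate 1 and 4 in empty control replicate 2, but 13 in empty control replicate 1. The density on chromosome 19 was 2.38 to 2.65 times that of the other chromosomes in 5 lists and 0.899 times in empty control replicate 1. The mean share of a list on this chromosome in CRLM1-OE exceeded that of the empty control by 1.20 percentage points, with a combined SD of 2.34, and differed by -0.0145 points from the antisense control. Without empty control replicate 1 the first difference was -0.457 points, and without empty control replicate 2 it was 2.85 points.

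The median width of a chromosome 19 peak was 535 and 923 bp in CRLM1-OE, 724 and 525 bp in the empty control and 828 and 679 bp in the antisense control. Wide and narrow lists therefore occurred in CRLM1-OE and in the empty control alike. Median scores lay between 55.1 and 63.6 where the lowest deposited score was 50, and 55.5% of all chromosome 19 peaks scored under 60. The highest score on the chromosome was 541, in CRLM1-OE replicate 2, and the highest in the other lists ranged from 123 to 245. Since scores depend on depth and peak width, they were used only as ranks within a list.

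Peaks in the top 10% of scores of their list made up 16.0% and 28.4% of the chromosome 19 peaks in CRLM1-OE, 10.3% and 6.77% in the empty control and 18.9% and 13.6% in the antisense control. On the other chromosomes the share was 9.09 to 10.2%. The mean difference was 5.96 ± 7.90 percentage points (SD, n = 6 lists) and was positive in 5 of 6 lists. An exact sign-flip permutation test over the lists, two-sided, gave p = 0.0938 and adjusted p = 0.125. The difference did not exceed the spread between lists. Empty control replicate 2 was the list with the negative value, and without CRLM1-OE replicate 2 the mean difference was 3.29 points.

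The next question was where the peaks lay along the chromosome. The longest interval without a protein-coding gene, chr19:24129969-29205319, was used to separate a p side with 641 protein-coding genes from a q side with 835. It spans the centromeric region, where repeats make short reads hard to place. Summed over the 6 lists, the p side held 364 peaks, or 15.1 per Mb, and the q side 320, or 10.9 per Mb. The interval itself held 35 peaks, or 7.04 per Mb.

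The p side had the higher density in each of the 6 lists. In CRLM1-OE it was 3.99 and 3.28 peaks per Mb on the p side against 3.20 and 2.24 on the q side. The empty control had 0.789 and 2.66 against 0.306 and 1.90, and the antisense control 2.16 and 2.24 against 1.67 and 1.56. The interval without protein-coding genes held 10, 3, 1, 13, 5 and 3 peaks in the order CRLM1-OE, empty control and antisense control. Its 13 peaks in empty control replicate 2 were 9.77% of that list's chromosome 19 peaks, and its share was 2.03 to 5.00% in the other lists.

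**Figure D1:**
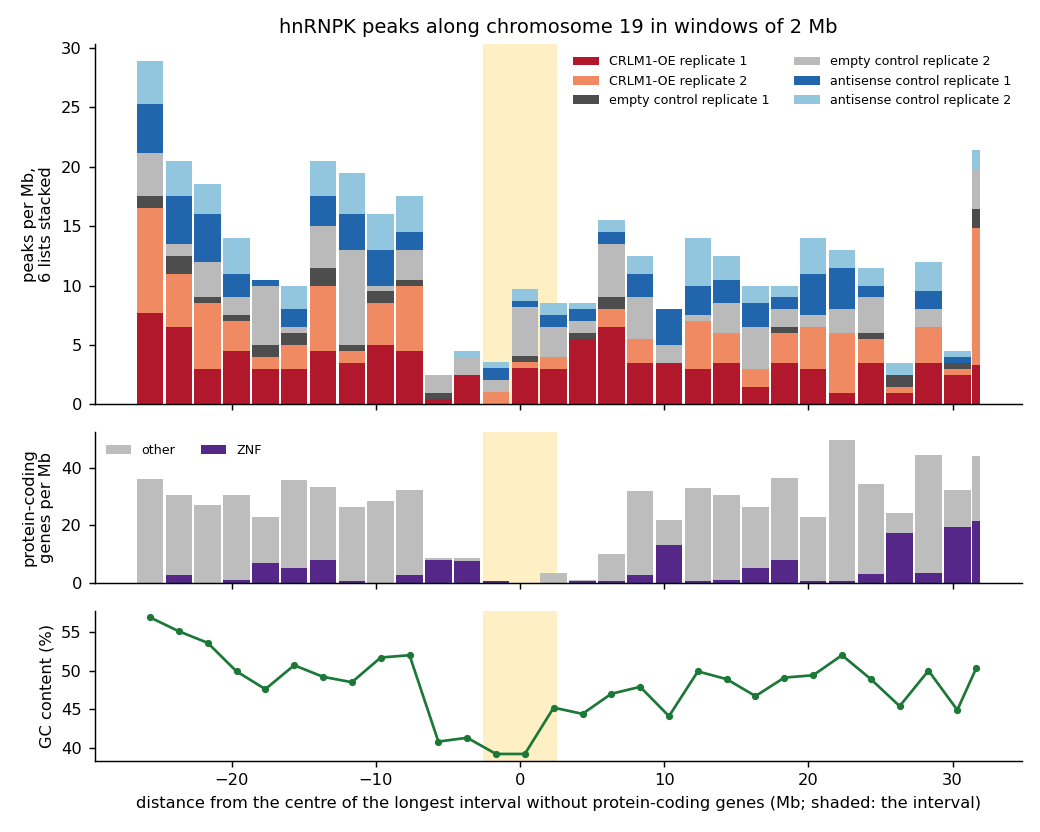
Peaks per Mb in windows of 2 Mb along chromosome 19, stacked over the 6 lists (top), protein-coding genes per Mb with ZNF genes in purple (middle) and GC content in percent (bottom), against the distance in Mb from the centre of the shaded interval without protein-coding genes. The first window had the most peaks, 56 in all and 28.9 per Mb, and the windows rich in ZNF genes beside the interval had 2.50 and 4.50 per Mb.

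In windows of 2 Mb, the terminal window of the p side had the highest density, with 56 peaks over the 6 lists, a GC content of 56.9% and no ZNF gene among its 70 protein-coding genes. The window at chr19:20000001-22000000, where 16 of 17 protein-coding genes were ZNF genes and GC was 40.8%, had the lowest with 5 peaks. Over the 30 windows, Spearman's correlation coefficient between the summed density and GC content was 0.800, and between the summed density and gene density it was 0.499. By list, the coefficient with GC was 0.409 and 0.892 in CRLM1-OE, 0.309 and -0.0139 in the empty control and 0.626 and 0.768 in the antisense control. These are descriptions, since neighbouring windows share sequence composition. The 29 peaks of empty control replicate 1 left 11 windows without a peak.

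Peaks with a midpoint at most 1 kb from the 5′ end of any gene record, used here as its transcription start site (TSS), were counted as TSS-proximal. On chromosome 19 this held for 45 of 200 and 51 of 148 peaks in CRLM1-OE, or 22.5% and 34.5%. It held for 4 of 29 and 20 of 133 peaks in the empty control, or 13.8% and 15%, and for 23 of 106 and 23 of 103 in the antisense control, or 21.7% and 22.3%. The highest share was in CRLM1-OE replicate 2, with a 95% Wilson interval of 27.3 to 42.4%. The widest interval, 5.5 to 30.6%, belonged to empty control replicate 1.

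On the other chromosomes the TSS-proximal share was 9.35% and 14.9% in CRLM1-OE, 4.09% and 6.14% in the empty control and 8.16% and 9.57% in the antisense control. The chromosome 19 share was higher in 6 of 6 lists, by 12.9 ± 3.76 percentage points (SD, n = 6 lists). The exact sign-flip permutation test gave p = 0.0312, the smallest value that 6 lists allow, and adjusted p = 0.0625 over 4 comparisons of chromosome 19 with the other chromosomes. After adjustment the difference therefore did not pass 0.05.

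The bases themselves are closer to start sites on this chromosome. Within 1 kb of a TSS lay 9.10% of chromosome 19 bases and 3.70% of the other bases. Relative to these shares, the TSS-proximal peaks were 1.52 to 3.79-fold over the bases on chromosome 19 and 1.10 to 4.03-fold on the other chromosomes. The mean log2 difference between the pair of folds was 0.06 ± 0.21 (SD, n = 6 lists), with p = 0.719 and adjusted p = 0.719 by the exact permutation test. It was negative in 4 of 6 lists and was 0.46 in empty control replicate 1. Without that list the mean log2 difference was -0.0186. A difference in fold was not detectable against the spread between lists.

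**Figure D2:**
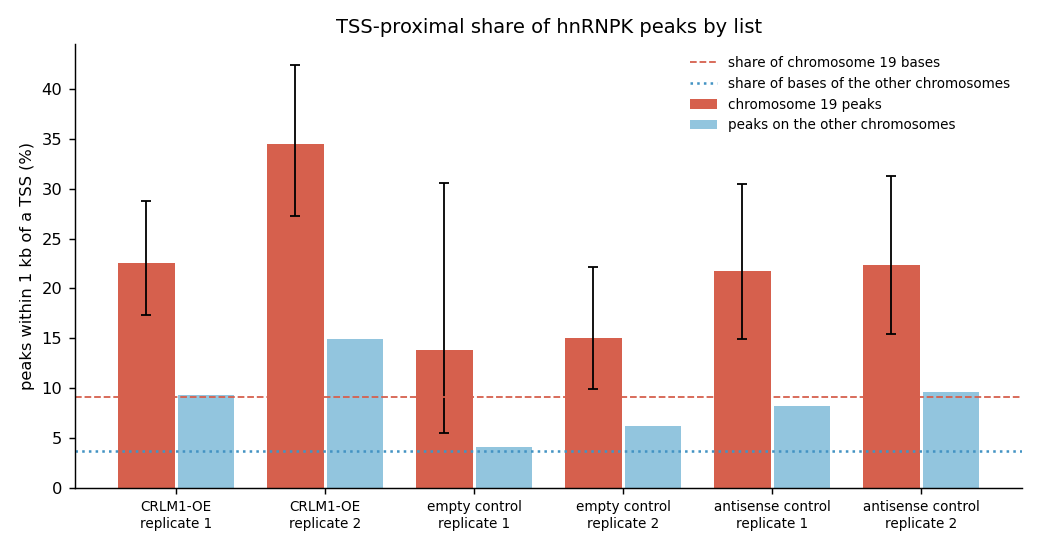
Percent of peaks within 1 kb of a TSS for chromosome 19 (red bars) and the other chromosomes (blue bars) in each list. Error bars are 95% Wilson intervals, and the lines show the share of bases within 1 kb of a TSS (9.10% and 3.70%). The chromosome 19 bar is the higher one in each of the 6 lists.

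The comparison of CRLM1-OE with its controls addressed whether TSS-proximal binding differed with CRLM1. Both comparisons use the same CRLM1-OE lists. The TSS-proximal share of chromosome 19 peaks was 28.5% ± 8.46 (SD, n = 2) in CRLM1-OE, 14.4% ± 0.880 (SD, n = 2) in the empty control and 22% ± 0.447 (SD, n = 2) in the antisense control. CRLM1-OE exceeded the empty control by 14.1 percentage points and the antisense control by 6.47 points, each with p = 0.333 by the exact permutation test of the list labels, two-sided, which is the smallest p for 2 lists against 2. The lists of CRLM1-OE did not overlap either control, but the lower CRLM1-OE list exceeded the higher antisense control list by only 0.170 points. On the other chromosomes CRLM1-OE replicate 1 (9.35%) lay below antisense control replicate 2 (9.57%). Without the interval lacking protein-coding genes, CRLM1-OE replicate 1 had 22.6% and the antisense control 22.8% and 23%, so the lists overlapped. They also overlapped with peaks above the median score of each list (25.4% against 26.2% and 33.3%). With all chromosome 19 peaks, the difference from the 4 control lists together was 10.3 points. The same exact test gave p = 0.133, again the smallest possible, and adjusted p = 0.720 over 9 comparisons.

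The CRLM1-OE lists differed enough to decide the size of these differences. Without replicate 2 the empty control was exceeded by 8.09 points, the antisense control by 0.486 points and all controls by 4.29 points. Without replicate 1 the values were 20.04, 12.5 and 16.2 points. CRLM1-OE replicate 2 also had the widest peaks of the 6, and the part of peak width in its TSS-proximal share was not tested. Among the 166 TSS-proximal peaks of all lists, 98 had their midpoint downstream of the nearest start and 68 upstream, and the median position was 88.0 bp downstream.

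By annotated position, introns held 350 of the 719 midpoints, or 48.7%, where 55% of chromosome 19 tiles lay in introns. The 5′ UTR held 39 midpoints, or 5.42%, against 1.18% of tiles, and coding sequence 53, or 7.37%, against 3.88%. The 3′ UTR held 41, or 5.70%, against 3.44%. Intergenic positions held 12.2% of midpoints and 18.2% of tiles. The 5′ UTR share lay between 3.01% and 7.5% in the 6 lists and was above the tile share in each.

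The GC content of the peaks was high on chromosome 19. The median was 54.5% and 59.5% in CRLM1-OE, 53.7% and 49.2% in the empty control and 54.8% and 57.6% in the antisense control. On the other chromosomes the medians were 42.9% and 41.8%, 37.3% and 43.6%, and 40.5% and 40.8%. Chromosome 19 was higher in 6 of 6 lists, by 13.7 ± 4.55 percentage points (SD, n = 6 lists), with p = 0.0312 and adjusted p = 0.0625 by the exact sign-flip permutation test. The chromosome sequence itself has 47.9% GC against 40.7% on the other chromosomes. A test against 0 therefore cannot tell the placement of peaks from this composition, and no corrected test was made. Empty control replicate 2 had the smallest difference, 5.62 points, which is less than the gap between the sequences.

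**Figure D3:**
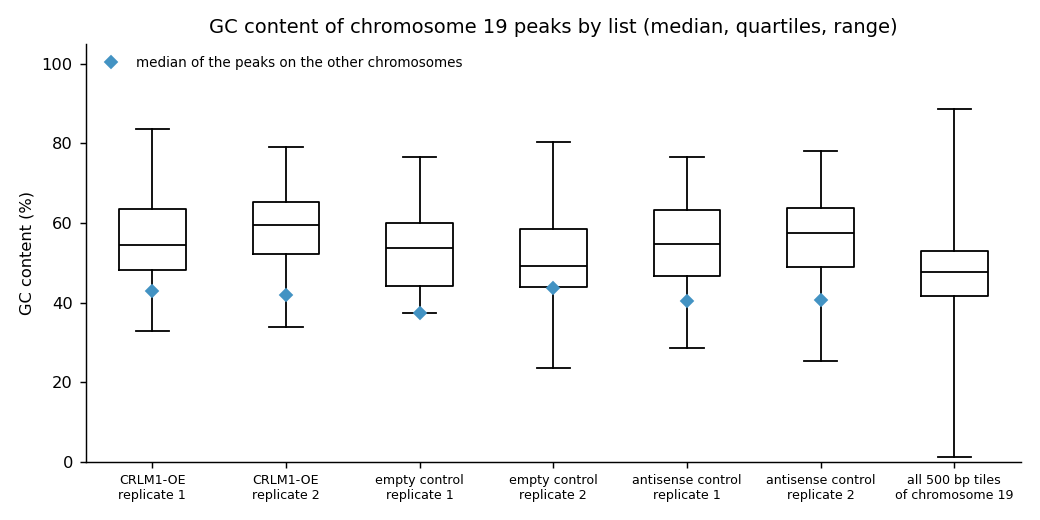
GC content in percent of the chromosome 19 peaks of each list and of all 500 bp tiles of the chromosome, as median, quartiles and range, with the median of the peaks on the other chromosomes as a diamond. The median of each list lies above the tile median of 47.8% and above its diamond.

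Median GC was 57.0% ± 3.56 (SD, n = 2) in CRLM1-OE, 51.5% ± 3.18 (SD, n = 2) in the empty control and 56.2% ± 2.03 (SD, n = 2) in the antisense control. The differences were 5.54 points (p = 0.333) and 0.800 points (p = 1.00) by the exact permutation test. The antisense control lists lay between the CRLM1-OE lists. Leaving out CRLM1-OE replicate 2 gave a difference of 3.02 points from the empty control, and leaving out empty control replicate 2 gave 3.29 points. The design cannot show a difference of this kind at 0.05.

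Start sites and GC content go together, so the TSS-proximal share was also set against chromosome 19 tiles of 500 bp with the same GC content, in classes of 2 percentage points. Of the tiles matched to the CRLM1-OE peaks, 16.9% and 19.7% were TSS-proximal. The shares were 15.8% and 13.2% with tiles matched to the empty control and 17.2% and 19.6% with those matched to the antisense control. The peaks exceeded them by 5.58 and 14.8 points in CRLM1-OE, by -1.96 and 1.8 points in the empty control and by 4.53 and 2.71 points in the antisense control. The mean excess was 4.57 ± 5.63 points (SD, n = 6 lists) and positive in 5 of 6 lists, with p = 0.0938 and adjusted p = 0.0938 by the exact sign-flip permutation test. Without CRLM1-OE replicate 2 it was 2.53 points. It did not exceed the spread between lists.

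CpG-rich sequence was common among the peaks. Windows of 500 bp at the peak midpoint with at least 50% GC and an observed-to-expected CpG ratio of at least 0.6, the usual marks of a CpG island, made up 20.5% and 29.7% of peaks in CRLM1-OE, 20.7% and 9.77% in the empty control and 21.7% and 22.3% in the antisense control. Of all tiles, 4.2% met both marks. The C-rich word CCCTCCC, searched on both strands in the same windows, was in 39.9% of all chromosome 19 peaks, in 31.2% of tiles of the same GC content and in 17.7% of all tiles. By list it was in 24.1 to 50.7%, and in empty control replicate 1 it was below the tiles of the same GC content, 24.1% against 27.6%. The word CCCCCC, which can overlap it by 3 letters, was in 33.5% of peaks and 30.5% of such tiles. For this word empty control replicate 1 was the highest list, with 48.3% against 27.1% of its tiles.

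ZNF genes were compared with the other genes of the chromosome. There were 249 protein-coding genes with a symbol starting ZNF and 1227 others. A gene was counted as carrying a peak if the peak overlapped the transcribed unit or the 5 kb before it. In CRLM1-OE 21 and 5 ZNF genes carried a peak, or 8.43% and 2.01%, against 152 and 142 other genes, or 12.4% and 11.6%. In the empty control 6 and 10 ZNF genes did, or 2.41% and 4.02%, against 22 and 81 others, or 1.79% and 6.60%. The antisense control had 4 and 8 ZNF genes, or 1.61% and 3.21%, against 85 and 84 others, or 6.93% and 6.85%.

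ZNF genes were the lower class in 5 of 6 lists, and empty control replicate 1 was the exception. The mean difference was -4.07 ± 3.35 percentage points (SD, n = 6 lists), with p = 0.0625 and adjusted p = 0.0833 by the exact sign-flip permutation test over 4 comparisons within the chromosome. Without empty control replicate 1 it was -5.01 points. The median ZNF gene was 26.1 kb long and the median other gene 13.8 kb, and the part of gene length in the difference was not tested.

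Per Mb of gene territory, the difference had the same sign. ZNF territory (8.58 Mb) had 2.21 and 0.583 peaks per Mb in CRLM1-OE, 0.699 and 1.17 in the empty control and 0.350 and 0.816 in the antisense control. The territory of other genes (30.2 Mb) had 4.43 and 3.97, 0.629 and 2.61, and 2.61 and 2.58 peaks per Mb. The mean difference was -1.84 ± 1.14 peaks per Mb (SD, n = 6 lists), with p = 0.0625 and adjusted p = 0.0833 by the exact test, and it was negative in 5 of 6 lists. CRLM1-OE replicate 1 had the highest ZNF value and CRLM1-OE replicate 2 the second lowest, so the ZNF values of CRLM1-OE overlapped those of both controls.

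At start sites the difference was negative in 6 of 6 lists. Within 1 kb of the TSS, a peak was found at 5 and 0 ZNF genes in CRLM1-OE, 0 and 2 in the empty control and 0 and 2 in the antisense control. For other genes the numbers were 37 and 56, 5 and 12, and 22 and 20. The mean difference was -1.46 ± 1.62 percentage points (SD, n = 6 lists), with p = 0.0312 and adjusted p = 0.0833 by the exact sign-flip permutation test. Without CRLM1-OE replicate 2 it was -0.842 points. A count of 0 of 249 genes allows a share of up to 1.20%, which is above the share of other genes in empty control replicate 1.

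**Figure D4:**
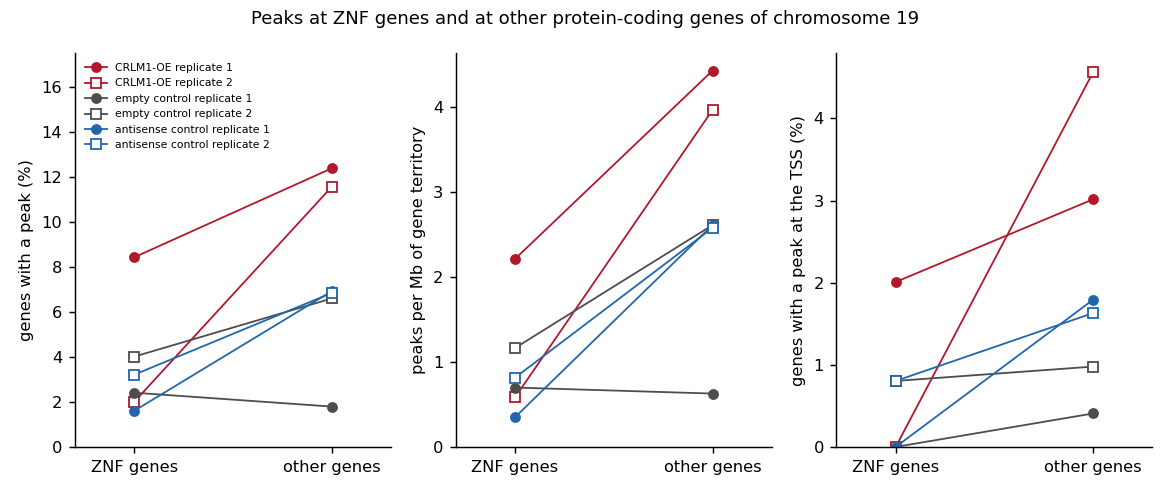
Percent of genes with a peak (left), peaks per Mb of gene territory (middle) and percent of genes with a peak within 1 kb of the TSS (right) for ZNF genes and other protein-coding genes of chromosome 19. Each line joins both values of 1 list, and empty control replicate 1 is the list whose line falls in the left and middle panels.

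The share of chromosome 19 peaks on ZNF genes was 6.44% ± 4.33 (SD, n = 2) in CRLM1-OE, 14.1% ± 9.31 (SD, n = 2) in the empty control and 4.81% ± 2.80 (SD, n = 2) in the antisense control. CRLM1-OE minus the empty control was -7.67 points and CRLM1-OE minus the antisense control 1.63 points, each with p = 0.667 by the exact permutation test. The groups overlapped in both comparisons. The high empty control mean came from replicate 1, with 6 of 29 peaks. Without it the difference from the empty control was -1.08 points, without empty control replicate 2 it was -14.2 points and without CRLM1-OE replicate 2 it was -4.60 points.

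GC content differed between the classes in the same direction as the peaks. The median tile had 43.2% GC in ZNF territory and 51.2% in the territory of other genes. Peaks inside ZNF territory had a median of 44.5% over 500 bp and those inside other gene territory 59.2%. In a comparison added after the values were seen, the number of peaks in ZNF territory was set against the rate of other gene territory in 6 classes of GC content. Over all lists 48 peaks lay in ZNF territory where that rate gives 89.5, a ratio of 0.536. By list the ratio was 0.975 and 0.282 in CRLM1-OE, 1.48 and 0.452 in the empty control and 0.180 and 0.459 in the antisense control. In tiles with at least 60% GC, ZNF territory had 36.4 peaks per Mb (10 peaks) and other territory 48.5 (226 peaks).

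Runs of at least 5 ZNF genes with gaps of at most 250 kb formed 12 clusters, which held 233 ZNF genes in 13.0 Mb. Together they had 76 peaks, or 5.84 per Mb over the 6 lists, against 14.2 per Mb in the rest of the chromosome. The largest cluster, from ZNF737 to ZNF254 beside the interval without protein-coding genes, had 13 peaks in 3.59 Mb, of which 6 were from CRLM1-OE replicate 1 and 5 from empty control replicate 2. The cluster from ZNF628 to ZNF581, at 54.5% the most GC-rich, had 8 peaks in 0.169 Mb, and 6 of its 13 protein-coding genes were not ZNF genes. At the distal end of the q arm, the cluster from ZNF264 to ZNF446 had 13 peaks among 43 ZNF genes and 23 other protein-coding genes.

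Few ZNF genes recurred. Of 249, 47 (18.9%) carried a peak in at least 1 list and 6 (2.41%) in at least 2, against 404 (32.9%) and 123 (10.0%) of the 1227 others. Over all chromosomes 28.2% of protein-coding genes carried a peak in at least 1 list and 8.35% in at least 2, and for chromosome 19 as a whole the shares were 30.6% and 8.74%, near that background. ZNF536, a neuronal zinc finger gene of 489 kb, was the single ZNF gene in 3 lists, with peaks at separate places. ZNF580, ZNF581, ZNF584, ZNF730 and ZNF544 were in 2, and none of them had overlapping peaks in its 2 lists. ZNF580 and ZNF581 overlap and had the same calls. Among these genes in 2 lists, ZNF544 alone was in both CRLM1-OE lists, with peaks ranked 1844 of 4339 and 2694 of 3163.

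Genes of other kinds recurred more often in the lists. BBC3, which encodes the p53-induced apoptosis activator PUMA, carried a peak in 5 lists, all but empty control replicate 1. CACNA1A, a neuronal calcium channel gene, was also in 5 lists, but its 10 peaks lay at separate places across 427 kb and scored at most 58.6. The median gene length was 14.3 kb for genes in no list, 20.5 kb in 1, 30.5 kb in 2, 23.2 kb in 3, 13.7 kb for the 2 genes in 4 and 71.6 kb for the 3 genes in 5. The part of gene length in these counts was not tested. The third gene in 5 lists was ENSG00000273734, which overlaps LINGO3. LINGO3, which encodes a leucine-rich repeat membrane protein, and STX10, a syntaxin of the trans-Golgi network, were in 4.

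The genes in 3 lists that the ranking placed next were FAM83E, SPHK2, IER2, INSR, LONP1, GADD45B and PLPPR3. FAM83E and SPHK2 were counted from the same peaks, which lay at the FAM83E start and upstream of SPHK2. SPHK2 encodes a sphingosine kinase, IER2 an immediate early response protein, INSR the insulin receptor and LONP1 a mitochondrial protease. GADD45B encodes a stress-induced growth arrest protein and PLPPR3 a phospholipid phosphatase-related membrane protein. All of these genes except IER2 were in both CRLM1-OE lists, and none was in an empty control list. Of all chromosome 19 genes, 1.9% and 6.17% carried a peak in the empty control lists and 11.7% and 9.96% in CRLM1-OE. The statement does not hold for the 27 genes in 3 lists as a whole, most of which were in an empty control list. Among them were SLC5A5, ARHGEF1, RNF225, GMIP, CYP4F22, GRIK5, CALR, DAPK3, NPHS1 and GNG7. ZBTB7A was in 3 control lists and in no CRLM1-OE list. No protein-coding gene of chromosome 19 was in all 6 lists.

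Named families were counted beside the 30.6% of all chromosome 19 genes with a peak in at least 1 list. These families were written down with earlier results of these data known, and their counts are descriptions. By list, the share of all chromosome 19 genes with a peak was 11.7% and 9.96% in CRLM1-OE, 1.9% and 6.17% in the empty control and 6.03% and 6.23% in the antisense control, so counts of members by list are to be read beside these shares. Of 20 stress and growth response genes, 12 (60%) carried a peak in at least 1 list and 8 in at least 2. BBC3, IER2, GADD45B and JUND, the last an AP-1 transcription factor, were in the most. By list 10 and 7 of the 20 carried a peak in CRLM1-OE, 1 and 1 in the empty control and 4 and 3 in the antisense control.

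Among 13 ribosomal protein genes 8 (61.5%) carried a peak, with 1 and 8 in CRLM1-OE, 0 and 0 in the empty control and 1 and 2 in the antisense control. RPS19 was in 3 lists, RPL28 and RPL36 were in 2, and RPL18 was among those in 1. All 8 were called in CRLM1-OE replicate 2, the list with the widest peaks. Of 35 genes listed for RNA binding and RNA processing, 16 (45.7%) carried a peak. The list also held genes of other function, among them SAE1, a subunit of the SUMO-activating enzyme, and MBD3, a subunit of a chromatin remodelling complex. Its called members further included the transcription elongation factor gene SUPT5H and the translation factor genes EIF3G, EIF3K and EEF2. The calls of SAE1 were the same peaks as those of ZC3H4, with which it shares its start region. Without SAE1 and MBD3 only, 14 of 33 (42.4%) carried a peak, 6 of them in at least 2 lists. The call of SUPT5H, in CRLM1-OE replicate 2 alone, was that of its neighbour RPS16, so this peak counts in both families. CIRBP, ZC3H4, SAFB and CELF5 were among those in the most lists. CIRBP and ZC3H4 were in the CRLM1-OE pair alone, SAFB was in 1 CRLM1-OE and 1 control list, and CELF5 was in 2 control lists alone. By list 7 and 8 of the 35 carried a peak in CRLM1-OE, 0 and 4 in the empty control and 3 and 2 in the antisense control.

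Tandem families with tissue-restricted expression had lower shares than the 30.6% of all chromosome 19 genes, with few genes in each family. No gene of 19 in the LILR and KIR family of immune receptors carried a peak in any list. It was 2 of 15 for kallikreins (KLK5 and KLK1, both in empty control replicate 2), 3 of 22 for the CEACAM and PSG genes and 2 of 11 for SIGLEC genes. Cytochrome P450 genes had 2 of 12, and olfactory receptor genes had 5 of 20 (25%), of which 4 were in empty control replicate 2. Median gene length was 7.13 kb for kallikreins, 8.53 kb for olfactory receptors, 11.2 kb for SIGLEC and 12.8 kb for LILR and KIR genes. It was 18.8 kb for CEACAM and PSG and 17.7 kb for cytochrome P450 genes, against 13.8 kb for all genes without a ZNF symbol. The part of gene length in these shares was not tested. Both KLF genes with a peak, KLF2 and KLF16, encode zinc finger transcription factors outside the ZNF symbols.

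Overlapping peaks (1 bp or more) from different lists were merged, which gave 657 regions on chromosome 19. Of these, 38 (5.78%) were called in at least 2 lists, where 2.92% of regions were over all chromosomes. There were 30 regions in exactly 2 lists, 3 in 3, 3 in 4, 2 in 5 and none in 6. A start site of a protein-coding gene lay within 1 kb of 18 of the 38 recurrent regions (47.4%) and of 113 of the 619 regions of 1 list (18.3%). The recurrent regions had a median GC of 61.7% and the others 53.6%. Merging makes a recurrent region wider by construction, with medians of 1726 and 619 bp, and a wider region reaches a start site more easily.

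Both CRLM1-OE lists shared 18 regions, which were 9.14% of the regions of replicate 1 and 12.3% of those of replicate 2. They were 5.54% of the 325 regions in either list, against 2.28% over all chromosomes. The antisense control lists shared 6 regions, or 5.83% and 5.88% of each, which were 3.02% of 199 against 1.22% over all chromosomes. The empty control lists shared 1 region, 3.45% and 0.752% of each and 0.621% of 161, against 1.18%. CRLM1-OE replicate 2 shared 11 regions with antisense control replicate 1 (7.53% and 10.7% of each). Most regions of a list were therefore not called in the other list of its group.

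**Figure D5:**
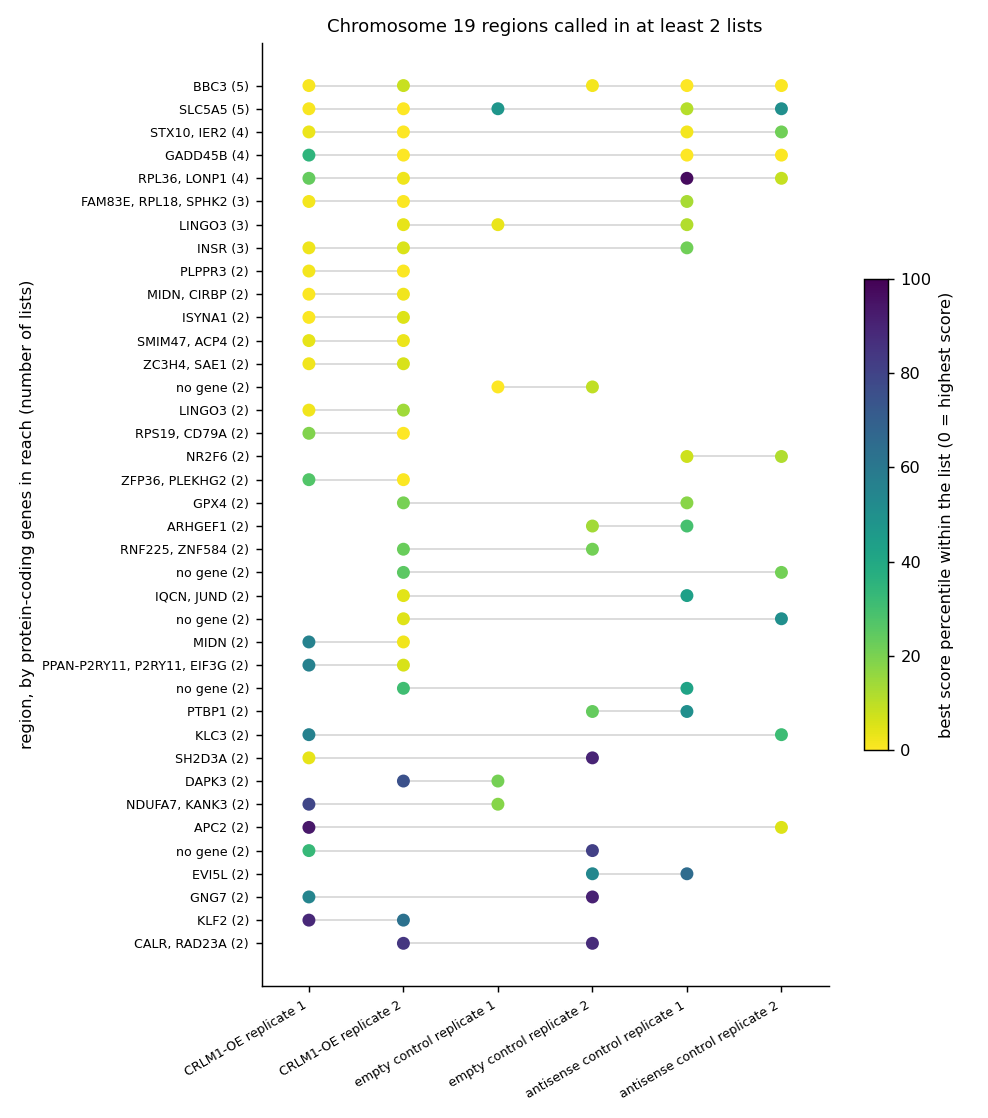
The 38 chromosome 19 regions called in at least 2 lists, named by the protein-coding genes whose body or 5 kb upstream they touch (genes with an identifier and no symbol are left out), with the number of lists. A point marks each list that called the region, and its color the percentile of the best score within that list, where 0 is the highest score. The BBC3 region is the only one with percentiles under 10 in 5 lists.

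The BBC3 region, chr19:47225654-47228688, was called in 5 lists. Its best peak ranked 35 of 4339 and 266 of 3163 in CRLM1-OE, 48 of 2607 in empty control replicate 2, and 4 of 2262 and 16 of 2224 in the antisense control. A stretch of 996 bp was covered in each of those lists. The peaks lay inside the gene over coding and intronic sequence and the neighbouring miRNA genes MIR3190 and MIR3191. None lay within 1 kb of the 5′ end of the BBC3 gene record.

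The other region in 5 lists, chr19:17864232-17867897 upstream of the sodium/iodide symporter gene SLC5A5, was joined by 1 wide peak. CRLM1-OE replicate 2 had a peak of rank 2 of 3163 and a score of 541 there, the highest on the chromosome, and CRLM1-OE replicate 1 one of rank 44 of 4339. Empty control replicate 1 ranked it 768 of 1619 and the antisense control lists 252 of 2262 and 1123 of 2224. No base was covered in all 5 lists.

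Of the regions in 4 lists, that at STX10 and IER2 (chr19:13152871-13156627) had 1149 bp covered in each list. Its best peaks ranked 121 of 4339 and 9 of 3163 in CRLM1-OE and 43 of 2262 and 480 of 2224 in the antisense control. The region at GADD45B (chr19:2475846-2480797) ranked 1511 and 6 in CRLM1-OE and 6 and 12 in the antisense control, and the strongest peaks lay 3 kb downstream of the start. The region at RPL36 and LONP1 (chr19:5690326-5693340) ranked 1018 and 86 in CRLM1-OE and 2199 and 194 in the antisense control. No base of the last pair was shared by all their lists. None of these 3 regions was called in an empty control list.

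The regions in 3 lists lay at FAM83E, RPL18 and SPHK2, at LINGO3 and at INSR. The FAM83E region (chr19:48613617-48615625) ranked 83 and 14 in CRLM1-OE and 298 of 2262 in antisense control replicate 1. The INSR region (chr19:7293300-7295232) covered the start of the gene and ranked 109 and 179 in CRLM1-OE and 494 in antisense control replicate 1. The LINGO3 region (chr19:2301974-2303523) ranked 122 in CRLM1-OE replicate 2, 51 of 1619 in empty control replicate 1 and 264 in antisense control replicate 1.

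The CRLM1-OE pair shared 11 regions that no control list had (1.67% of 657), where 0.530% of regions were over all chromosomes. Both CRLM1-OE lists held more peaks (4339 and 3163) than any control list (1619 to 2607), so a longer list and a change in binding cannot be told apart here. A protein-coding start lay within 1 kb of 8 of the 11, against 18 of all 38 recurrent regions and 113 of the 619 regions of 1 list. The 11 had a median width of 2014 bp against 619 bp for regions of 1 list, and a wider region reaches a start more easily. Their median GC was 65.4%. None of the 11 touched a ZNF gene, but only 1 of the 38 and 49 of the 619 did. For comparison, 1 region was called in both empty control lists alone and 1 in both antisense control lists alone. The empty control region, chr19:27394996-27396104, lay in the interval without protein-coding genes, had 37.2% GC and ranked 4 of 1619 and 254 of 2607. The antisense control region, chr19:17234789-17236764, lay in NR2F6, an orphan nuclear receptor gene, and ranked 174 and 264.

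The best-ranked of the 11 lay in PLPPR3 (chr19:814254-817979), with best ranks of 84 and 17 in CRLM1-OE replicates 1 and 2, over the CCAT repeat shown above. It was followed by the region at the start of CIRBP, a cold-inducible RNA-binding protein gene, and downstream of MIDN (chr19:1259020-1261603), with ranks of 25 and 73. Next came ISYNA1, the inositol-3-phosphate synthase gene (chr19:18437199-18438926, ranks 26 and 165), SMIM47 and the acid phosphatase gene ACP4 (chr19:50793552-50795565, ranks 158 and 88) and ZC3H4 with SAE1 (chr19:47111799-47113599, ranks 88 and 192). The ranks of these 5 regions were within the top 200 of both lists.

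The remaining named regions were more uneven. The second LINGO3 region (chr19:2306852-2308035) ranked 98 and 445. The region at RPS19, a ribosomal protein gene, and CD79A, a B cell receptor component gene (chr19:41871569-41874064), ranked 823 and 10. The region at ZFP36, the gene of the mRNA decay factor tristetraprolin, and PLEKHG2 (chr19:39407716-39410567), ranked 1171 and 13. In each of the last pair the strong call was that of CRLM1-OE replicate 2. As genes, some of these also carried a peak elsewhere in control lists. PLPPR3 did in antisense control replicate 1 and RPS19 in antisense control replicate 2. LINGO3 did in empty control replicate 1 and antisense control replicate 1.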

How the data were processed

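The 6 peak lists, 1 for each immunoprecipitated hnRNPK library from HCT116 cells, were analysed. Methods and submitters' notes name cutadapt for trimming, Bowtie2 for alignment to GRCh38 and MACS2 for peaks, with each replicate set against its own input. The deposited score in the authors' lists never fell below 50. That floor does not correspond to the q-value limit in the methods, so the scale of the score and the exact caller settings are not known. Depth is unknown, and 0 numeric columns remained unused.

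Peaks outside chromosomes 1 to 22, X and Y were left out (16214 of 16768 were kept). Peaks were read with Python 3.11.15 and pandas 2.3.3, and sequence was taken from hg38 with pysam 0.24.0 and samtools 1.23.1. Tests used scipy 1.17.1 and numpy 2.4.6, with lists as replicates. They were exact sign-flip tests of 6 within-list differences (64 arrangements) and exact permutations of list labels (6 or 15 arrangements), two-sided, with Benjamini-Hochberg adjustment within families of 4, 4 and 9 comparisons. The code was tested on simulated lists. Intervals cover counting error only.

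Named genes and regions were those called in the most lists, ordered by mean score percentile (up to 12 genes, 8 ZNF genes and 8 regions), the 8 best regions of both CRLM1-OE lists alone, up to 3 of each control pair alone, and up to 4 examples of each family. The members, lists and tests were chosen with earlier results of these data known. Alternatives were other score limits, TSS windows, start sites, GC windows, tile lengths, symbols, overlaps and left-out lists.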

Additional observations from a re-analysis of the deposited data

How the results depend on the processing

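No comparison passed 0.05 after adjustment, in the main setting or any alternative, so an unchanged side of the threshold says little. Of 213 recomputed values, 195 kept their direction and side of the threshold or, for values with no test and counts, stayed within 1 SD or 1.5 times. The 195 include 6 values of the replicate block and 3 with crossed numbers, described below, which equal the main values by construction. Leaving out the interval without protein-coding genes likewise left the ZNF gene and territory comparisons identical. Unknown depth limits comparisons of peak numbers between lists.

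The log2 difference in TSS-proximal fold between chromosome 19 and the other chromosomes changed sign, to -0.0125 with the peaks above the median score of each list and to -0.0224 with start sites of protein-coding genes only, and it lay between -0.0186 and 0.0909 when each list was left out. The difference in chromosome 19 share between CRLM1-OE and the antisense control was 0.512 points above the median score and 1.35 points in the 1000 highest-scoring peaks. Regions in at least 2 lists fell to 24 above the median score, 23 in the 1000 highest-scoring peaks and 25 with a reciprocal overlap of 50%, and were 19 without CRLM1-OE replicate 2, 21 without CRLM1-OE replicate 1 and 29 to 35 without any 1 control list. Regions in both CRLM1-OE lists alone fell to 7 in the 1000 highest-scoring peaks and 6 with the reciprocal overlap. In each case the cause was not tested, except that fewer lists or peaks give fewer regions.

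Leaving out each list in turn changed the sign of 5 of the 11 differences between groups. The chromosome 19 share of a list, CRLM1-OE minus the empty control, was -0.457 points without empty control replicate 1. That share minus the antisense control was 0.0204 without CRLM1-OE replicate 1 and 0.0129 without antisense control replicate 1. Median GC, CRLM1-OE minus the antisense control, ranged from -1.72 points (without CRLM1-OE replicate 2) to 3.32 points and was -0.636 without antisense control replicate 1. The ZNF share of peaks, CRLM1-OE minus the antisense control, ranged from -1.44 (without CRLM1-OE replicate 1) to 4.69 points and was -0.357 without antisense control replicate 1. Against all controls it ranged from -6.08 to 0.724 points (without empty control replicate 1) and was 0.0413 without CRLM1-OE replicate 2. These causes were not tested.

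Replicate numbers were also used as a replicate block. Samples with the same number did not deviate together (correlations of chromosome shares of -0.803, 0.0788 and -0.287 for the 3 pairs of groups). The value of -0.803 was that of CRLM1-OE and the empty control, whose lists with opposite numbers therefore varied together. On the other chromosomes, empty control replicate 2 shared 5.74% of its regions with CRLM1-OE replicate 1 and 1.96% with empty control replicate 1. Those lists had 4123 and 1590 regions there, and its shares with the other lists had the same order as their numbers of regions. Likeness and list length therefore cannot be told apart in these shares. By the correlation alone, the lists may not be fully exchangeable within a group, and the cause was not tested. With the block, the TSS-proximal difference was 14.1 points from the empty control and 6.47 from the antisense control, each with exact p = 0.5, the smallest possible, and none of the 6 paired comparisons was called. With crossed numbers, chosen after seeing the data, 0 of 3 were called.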
